A study of Mus musculus with 4 samples.

Results

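The 10 genes described here encode transcription factors of the luminal lineage of the mammary epithelium: *Gata3*, *Elf5*, *Foxa1*, *Ehf*, *Tfap2c*, *Cebpb*, *Tbx3*, *Sox9*, *Runx1* and *Grhl2*. They were taken by name from a table of 30506 loci, of which 22483 carry a gene name. The table holds 9 of the 10 names as written and lists *Tfap2c* under its older symbol *Tcfap2c*, which the RefSeq gene table pairs with it. Each gene has a single locus in the table, so no choice between loci was needed.

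Poly(A) RNA from mammary glands of 4 mice was sequenced, 2 miR-21+/+ mice and 2 miR-21-/- mice from a knockout line generated earlier. All were 2 months old per the labels, on a mixed 129SV::FVB/N::C57BL/6 background, and the paper describes the tissue as virgin gland. The table gives 1 FPKM value per locus and genotype, that is, fragments scaled to exon length and to the number of mapped fragments, and this value combines both mice. How far mice of a genotype varied cannot be seen, so each ratio below compares 2 pooled values without a replicate check or a test. A gene counts as higher or lower only at 1.5-fold or more and above 5 FPKM in at least 1 genotype. The share of all named loci that meets these limits is given with the first counts. It applies to every later count at the same limits on the values as deposited, not to rescaled or centred ratios. Neighbouring loci were counted above 1 FPKM.

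The mammary ducts consist of an inner luminal layer and an outer basal or myoepithelial layer. Luminal cells comprise hormone-sensing cells, which carry the estrogen and progesterone receptors, and progenitors that form the milk-secreting alveoli during pregnancy. *Gata3* maintains the luminal fate as a whole, *Foxa1* opens chromatin for the estrogen receptor, and *Elf5* drives alveolar differentiation downstream of prolactin. The study asked whether STAT5, the factor that prolactin activates, controls miR-21 and what miR-21 does in the gland, and the RNA of these mice was compared to look for its target genes.

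The 2 columns differ in their sums. Over all loci they summed to 759295 FPKM in miR-21+/+ and 1175603 FPKM in miR-21-/- glands, and over named loci to 380567 and 355385. The higher total in miR-21-/- glands therefore comes from loci without a gene name. The targeted gene cannot check the labels, since *Mir21* and its host gene *Vmp1* form a single locus of long poly(A) RNA, with 42.5 and 68.2 FPKM. The number of reads behind each value is not part of the table, so the precision of low levels such as that of *Grhl2* is unknown.

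Most of the luminal factors were higher in miR-21-/- glands. Of the 10, 8 had a higher and 2 a lower FPKM value, against 43.1% and 56.9% of the 9714 named loci above 5 FPKM, and their summed level was 148 FPKM in miR-21+/+ and 232 FPKM in miR-21-/- glands. The 6 genes *Ehf*, *Gata3*, *Elf5*, *Tfap2c*, *Sox9* and *Runx1* were 1.5-fold or more higher, against 3.85% of the 9714 named loci above 5 FPKM. None was 1.5-fold or more lower, against 4.33% of these loci. At 2-fold, *Ehf* alone was higher (1.25% of the loci) and none was lower (1.48%). The median log2 ratio of the 10 genes was 0.81, while that of the 9714 loci was -0.03. These counts compare 2 pooled values. Once the columns were brought to the same total over all loci 3 genes, *Ehf* upward and *Foxa1* and *Tbx3* downward, passed 1.5-fold. That scaling lowers every log2 ratio by 0.63. The 56.9% of loci with a lower value then all passed 1.5-fold downward as well, so the shares above do not apply to it.

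**Figure D1:**
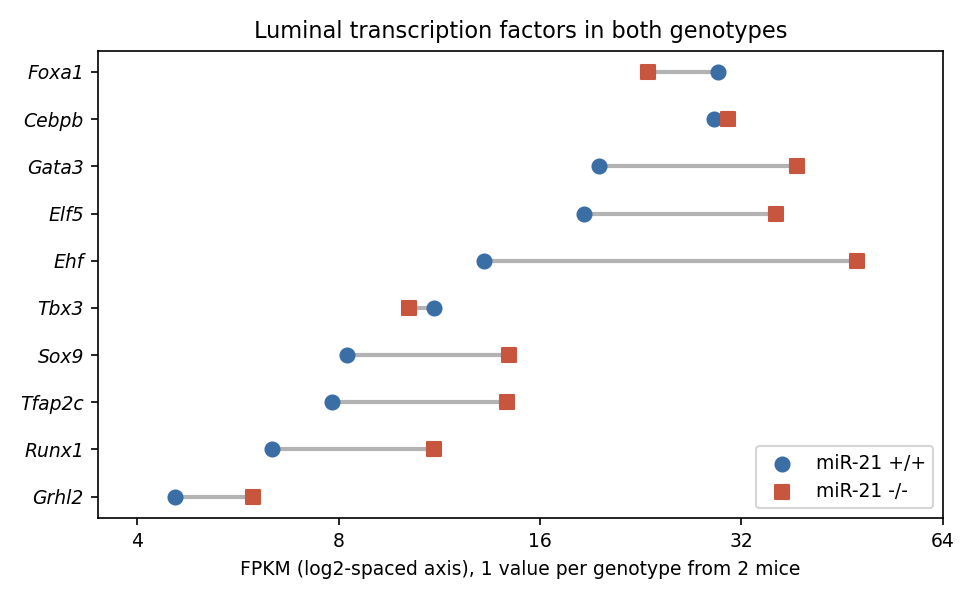
FPKM of the 10 luminal transcription factors on a log2-spaced axis, circles for miR-21+/+ and squares for miR-21-/- glands, each 1 value from 2 mice, ordered by the miR-21+/+ level. *Ehf* moves from 13.2 to 47.7 FPKM and from the middle of the order to its top, while *Foxa1* and *Tbx3* are the only genes whose square lies to the left of the circle.

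The epithelial ETS factors *Ehf* and *Elf5* had the highest and the third highest ratios. *Ehf*, an activator and repressor found in many glandular and lining epithelia, stood at 13.2 FPKM in miR-21+/+ and 47.7 FPKM in miR-21-/- glands, a ratio of 3.6 (log2 1.85). Only 22 of the 9714 loci had a ratio as high, counting *Ehf* itself. *Elf5* stood at 18.6 and 36.0 FPKM, a ratio of 1.93 (log2 0.95). In miR-21+/+ glands the level of *Ehf* was 0.711 times that of *Elf5*, and in miR-21-/- glands it was 1.32 times.

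*Ehf* and *Elf5* are neighbours. In mm9 *Ehf* is listed at chr2:103102290-103143436 and annotated on the minus strand, *Elf5* is listed at chr2:103252255-103291146 on the plus strand, and 109 kb separate them. The other named loci above 1 FPKM within 500 kb of either gene did not share the higher level. *Cat*, the hydrogen peroxide-degrading catalase, begins 2.92 kb past the end of *Elf5* and had 369 FPKM in miR-21+/+ and 197 FPKM in miR-21-/- glands (log2 -0.91). *Pdhx*, a subunit of the pyruvate dehydrogenase complex, had 17.6 and 11.2 FPKM (log2 -0.66), and the log2 ratios of *Cd44*, *Apip*, *Abtb2*, *Nat10* and *Caprin1* lay between -0.34 and 0.21. These neighbours were chosen by position, with their values already known, and *Caprin1* has a failed comparison in the table's status column.

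**Figure D2:**
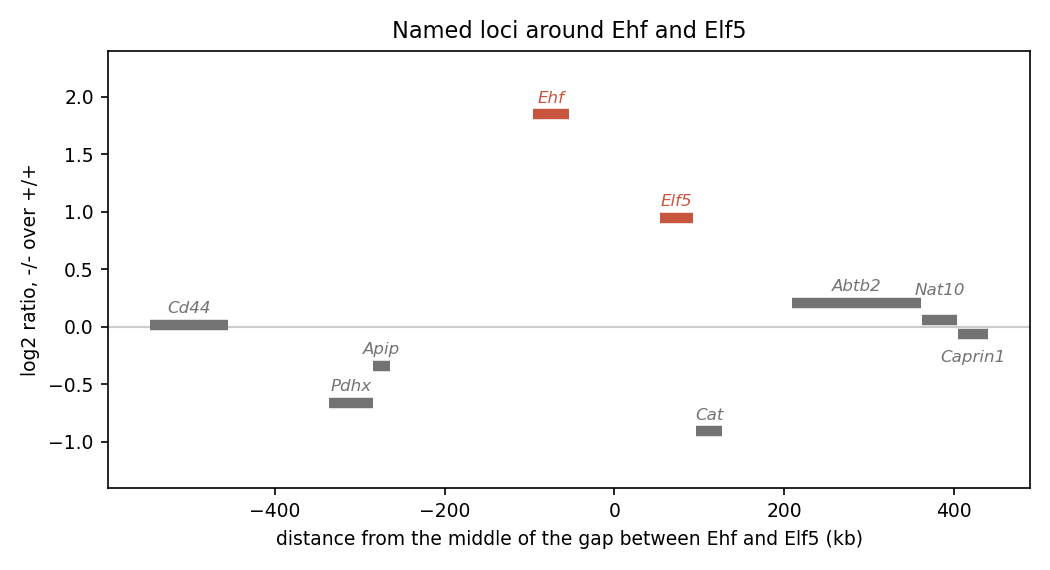
Log2 ratio of FPKM (miR-21-/- over miR-21+/+) of the named loci above 1 FPKM around *Ehf* and *Elf5*, drawn along their distance in kb from the middle of the gap between the pair. Each bar spans a locus; *Ehf* at 1.85 and *Elf5* at 0.95 lie above the other loci, which run from -0.91 to 0.21.

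*Gata3*, the zinc finger factor of luminal cells, had 19.6 FPKM in miR-21+/+ and 38.8 FPKM in miR-21-/- glands, a ratio of 1.98 (log2 0.99) that stopped just short of 2-fold. The table lists it at chr2:9778700-9811634 merged with *9230102O04Rik*, and the library kit does not mark strand, so reads of the overlapping transcripts cannot be told apart. *4930412O13Rik*, a separate entry within the same span, had 2.97 and 6.19 FPKM (log2 1.06). *Gata3* is also a factor of T helper cells. The T cell genes *Cd3e* and *Lck* had 7.26 and 1.22 FPKM and 8.41 and 2.13 FPKM in miR-21+/+ and miR-21-/- glands. Both passed 5 FPKM in miR-21+/+ glands alone. The part of T cells in the level of *Gata3* was not tested.

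The AP-2 factor *Tfap2c*, which upholds the luminal phenotype, had 7.83 FPKM in miR-21+/+ and 14.3 FPKM in miR-21-/- glands (ratio 1.82, log2 0.86). *Sox9*, an HMG-box factor of epithelial progenitors, had 8.23 and 14.4 FPKM (ratio 1.75, log2 0.81). *Runx1*, a Runt-domain factor of blood formation that is also made in mammary epithelium, had 6.37 and 11.1 FPKM (ratio 1.75, log2 0.81). The 3 genes thus had similar levels and nearly the same ratio, which between 1.89% and 2.12% of the named loci reached. *Grhl2*, a Grainyhead factor that activates genes of epithelial junctions, had 4.55 and 5.96 FPKM (ratio 1.31, log2 0.39). It was the lowest of the 10 in both genotypes and passed 5 FPKM in miR-21-/- glands alone.

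*Foxa1*, *Tbx3* and *Cebpb* did not share the higher level. *Foxa1* had 29.5 FPKM in miR-21+/+ glands, the highest of the 10, and 23.2 FPKM in miR-21-/- glands, the fifth highest (log2 -0.35). Its level was 2.22 times that of *Ehf* in miR-21+/+ and 0.486 times in miR-21-/- glands. *Tbx3*, a T-box repressor needed to form the mammary placode and present in hormone-sensing cells, had 11.1 and 10.2 FPKM (log2 -0.12). *Cebpb*, a leucine zipper factor needed for alveolar growth that also acts in fat cells and macrophages, had 29.1 and 30.6 FPKM (log2 0.08). All 3 ratios lie under 1.5-fold, and without a value per mouse it cannot be said whether they differ from none. In the table *Foxa1* carries the span chr12:58641368-58838832, shared with *4921506M07Rik* (log2 -0.14), while the annotated gene covers chr12:58641618-58647108.

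**Figure D3:**
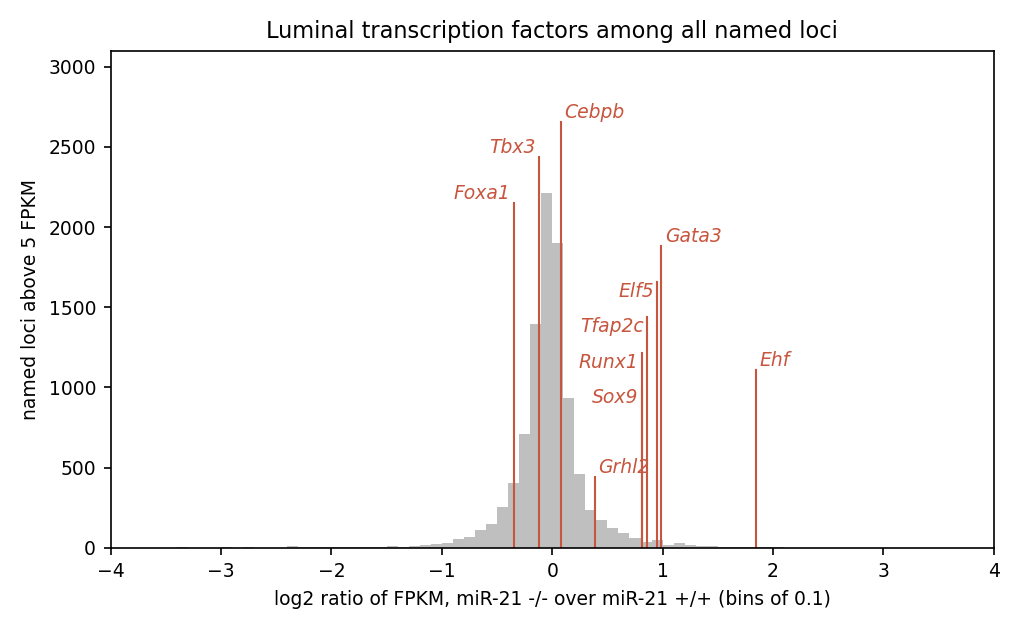
Number of named loci above 5 FPKM in each bin of the log2 FPKM ratio (miR-21-/- over miR-21+/+; loci beyond the axis are not drawn), with red lines at the 10 luminal transcription factors. The bulk of the loci centres on -0.03. *Sox9*, *Runx1*, *Tfap2c*, *Elf5* and *Gata3* sit between 0.81 and 0.99 and *Ehf* at 1.85. *Tbx3* and *Cebpb* lie within the bulk, and *Foxa1* at -0.35 and *Grhl2* at 0.39 toward its edges.

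The luminal factors were set beside lists of cell type markers. In whole tissue more cells of a type and more RNA per cell cannot be told apart. Most markers of both epithelial layers had higher values in miR-21-/- glands as deposited, but with equal sums over all loci the luminal median was -0.11 and the basal median 0.06. That scaling lowers the log2 ratio of every locus by 0.63. The distance of both medians from the median of all named loci, -0.03 as deposited, is therefore unchanged by it. Of 16 luminal epithelial markers, 15 had a higher value and 6 were 1.5-fold or more higher, with a median log2 ratio of 0.52 and a summed level of 817 FPKM in miR-21+/+ and 1120 FPKM in miR-21-/- glands. *Krt8*, a keratin of the luminal layer, had 119 and 197 FPKM, and *Krt19*, the most abundant gene of the list, 223 and 247 FPKM. *Muc1*, a mucin of the luminal surface, had 4.09 and 8.21 FPKM and passed 5 FPKM in miR-21-/- glands alone. Of the 12 basal and myoepithelial markers above 5 FPKM, all had a higher value and 8 were 1.5-fold or more higher, and the median over the 13 listed genes was 0.70. *Cdh3*, among the 8, had 3.47 and 6.93 FPKM and passed 5 FPKM in miR-21-/- glands alone. *Acta2*, the smooth muscle actin of myoepithelial cells and the most abundant gene of that list, had 222 and 341 FPKM. *Krt14* (merged with *Krt16* in the table) had 22.9 and 38.7 FPKM, and *Oxtr*, the oxytocin receptor of the contractile cells, had 17.5 and 48.7 FPKM. How far the epithelial content moved the luminal factors was not tested.

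Counted relative to the luminal marker median, 6 of the 10 factors stayed above it and 4 fell below. *Ehf* kept a log2 difference of 1.32, and *Gata3*, *Elf5*, *Tfap2c*, *Sox9* and *Runx1* kept between 0.28 and 0.46. *Grhl2* was near the median at -0.13, *Cebpb* lay at -0.45, *Tbx3* at -0.65 and *Foxa1* at -0.87. On this scale *Ehf* upward and *Foxa1* and *Tbx3* downward exceeded 1.5-fold. Relative to the basal marker median, *Ehf* was at 1.15, the 5 factors at 0.11 to 0.29, *Cebpb* at -0.62, *Tbx3* at -0.82 and *Foxa1* at -1.04. There 4 genes exceeded 1.5-fold, 1 upward and 3 downward. Centring on the basal median of 0.70 lowers every locus. The 56.9% of named loci above 5 FPKM with a lower value as deposited then all pass 1.5-fold downward too. For the luminal centring the share of all loci was not counted.

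**Figure D4:**
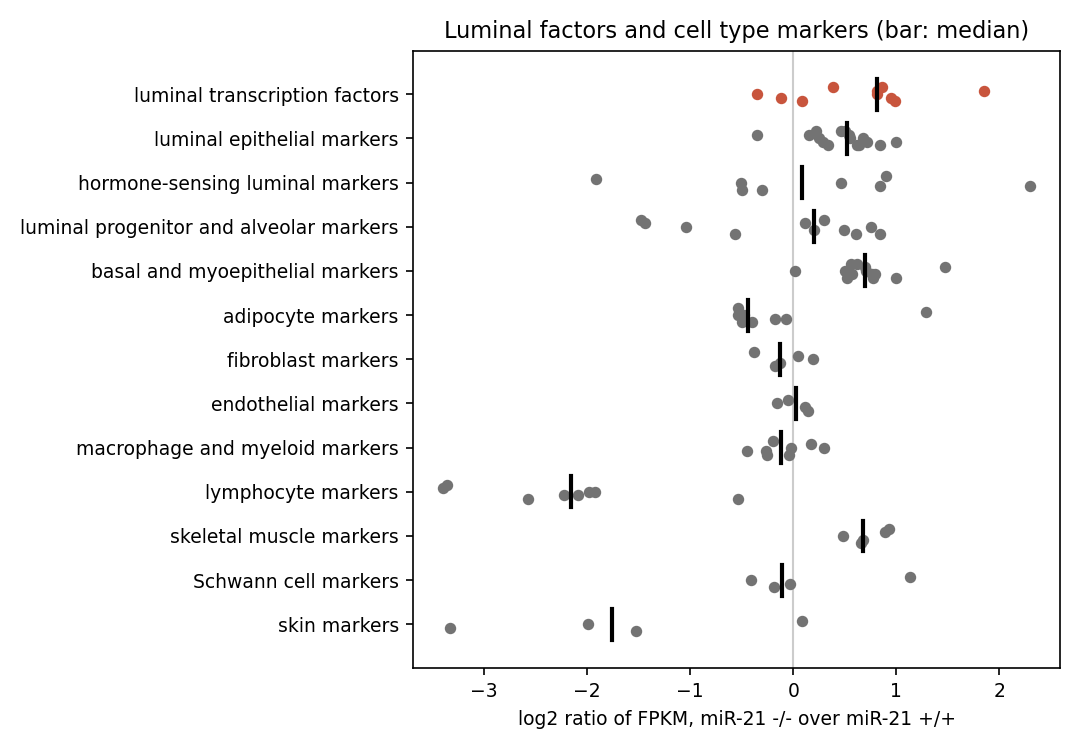
Log2 ratio of FPKM (miR-21-/- over miR-21+/+) of the luminal transcription factors (red) and of markers of 12 cell types or states (grey), for genes above 1 FPKM in at least 1 genotype; black bars are medians. The luminal transcription factors (median 0.81) and the luminal, basal and skeletal muscle markers (0.52, 0.70 and 0.68) lie to the right of 0. The lymphocyte and skin medians (-2.16 and -1.76) lie far to the left. The skin median rests on 4 of 7 genes, of which *Lor* (1.16 and 0.115 FPKM) and *Krtdap* (2.73 and 0.689 FPKM) passed 1 FPKM in miR-21+/+ glands alone. *Krt71*, higher in miR-21-/- glands (0.0358 and 0.332 FPKM), stayed under that limit.

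Hormone-sensing genes differed in both directions. Of 7 such markers above 5 FPKM, 3 were 1.5-fold or more higher and 1 was lower. *Pgr*, the progesterone receptor, had 4.71 FPKM in miR-21+/+ and 23.3 FPKM in miR-21-/- glands (log2 2.30) and passed 5 FPKM in the latter alone. *Areg*, the ductal growth factor amphiregulin, had 44.5 and 83.0 FPKM, and *Prom1*, a membrane protein of hormone-sensing cells, 6.90 and 12.4 FPKM. *Cited1*, a coactivator of the estrogen receptor, had 43.9 and 11.7 FPKM (log2 -1.91). *Esr1*, the estrogen receptor whose access to chromatin *Foxa1* prepares, had 17.7 and 12.5 FPKM (log2 -0.50), with a failed comparison in the table's status column.

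Among 10 progenitor and alveolar markers above 5 FPKM, 3 were 1.5-fold or more higher and 3 lower. *Kit*, the receptor of luminal progenitors, had 20.1 and 35.9 FPKM (log2 0.84), *Cd14*, a co-receptor for lipopolysaccharide, 25.4 and 42.7 FPKM, and *Mfge8*, a milk fat globule protein, 174 and 265 FPKM. The milk protein genes, some of which *Elf5* acts on together with STAT5, went in different directions. *Wap* had 7.09 and 2.54 FPKM (log2 -1.48) and passed 5 FPKM in miR-21+/+ glands alone. *Csn2* had 14.8 and 7.21 FPKM (log2 -1.04) and *Ltf*, lactoferrin, 99.6 and 36.6 FPKM (log2 -1.44). In contrast, *Csn1s1* had 8.33 and 11.7 FPKM and *Csn3* 73.2 and 79.0 FPKM.

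Other cell types that make some of these factors were compared as well. Of 7 lymphocyte markers above 5 FPKM, 6 were 1.5-fold or more lower, and these 6 passed 5 FPKM in miR-21+/+ glands alone. The summed level was 123 FPKM in miR-21+/+ and 58.6 FPKM in miR-21-/- glands. *Cd79a*, at a locus merged with *Arhgef1*, made up 70.3 and 48.3 FPKM of these sums. *Gata3* and *Runx1*, both also factors of lymphocytes, were higher. All 8 macrophage and myeloid markers stayed within 1.5-fold (median log2 ratio -0.12), as *Cebpb* did, with *Cd68* at a locus merged with *Eif4a1* and *Senp3*. Of 8 adipocyte markers, 7 had a lower value (median -0.44), with *Lep*, the hormone leptin, as the exception at 27.7 and 67.9 FPKM. Fibroblast and endothelial markers had medians of -0.13 and 0.03, with none of 9 past 1.5-fold. Of 5 skeletal muscle markers, 4 were 1.5-fold or more higher (median 0.68). The skin genes *Krt10*, at 5.70 and 1.98 FPKM, and *Krt15*, whose levels differed by a ratio of 1.05, were the 2 of 7 skin markers above 5 FPKM, and *Krt25*, of the hair follicle, was near 0 in both genotypes. The part of these tissues in the levels of the luminal factors was not tested.

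Relatives of the 10 factors showed whether a family moved as a whole. In the epithelial ETS family, *Elf3* joined *Ehf* and *Elf5* with 7.57 FPKM in miR-21+/+ and 12.2 FPKM in miR-21-/- glands (log2 0.69), and *Spdef*, under the 5 FPKM limit, had 2.42 and 1.39 FPKM. The summed level of the 4 genes was 41.9 and 97.3 FPKM (log2 1.22). Most of both sums came from *Ehf* and *Elf5* themselves, so they do not describe the relatives apart from these 2. *Sox10*, the SOXE relative of *Sox9* in basal cells and Schwann cells, had 16.4 and 36.1 FPKM (log2 1.13), whereas *Sox8*, under the 5 FPKM limit, had 2.50 and 1.78 FPKM (log2 -0.49). *Grhl1* had 7.81 and 12.3 FPKM (log2 0.66), a larger ratio than that of *Grhl2*. *Tfap2c* exceeded its relatives *Tfap2a* (5.08 and 6.12 FPKM) and *Tfap2b* (7.59 and 7.93 FPKM) in miR-21-/- glands, having been close to *Tfap2b* in miR-21+/+ glands. For *Tfap2b* the status column gives a failed comparison. *Tbx2*, the nearest relative of *Tbx3* and a repressor as well, had 6.33 and 3.75 FPKM (log2 -0.75) at the higher of its 2 listed loci. It passed 5 FPKM in miR-21+/+ glands alone.

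In the GATA, FOXA and RUNX families the member was the most abundant gene. *Gata3* was the only GATA gene above 5 FPKM, with *Gata2* at 2.76 and 2.85 FPKM and *Gata6* at 3.27 and 3.26 FPKM. *Foxa2* and *Foxa3* stayed near 0. *Runx2* and *Runx3*, at 3.35 and 2.95 FPKM and at 1.32 and 0.882 FPKM, did not share the higher level of *Runx1*. For *Runx2* the status column gives a failed comparison. *Cbfb*, the common DNA-binding partner of the RUNX proteins, had 28.0 and 25.4 FPKM. *Cebpb* was exceeded by *Cebpa*, a factor of fat cells with 149 and 133 FPKM, and none of the 5 C/EBP genes above 5 FPKM passed 1.5-fold.

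**Figure D5:**
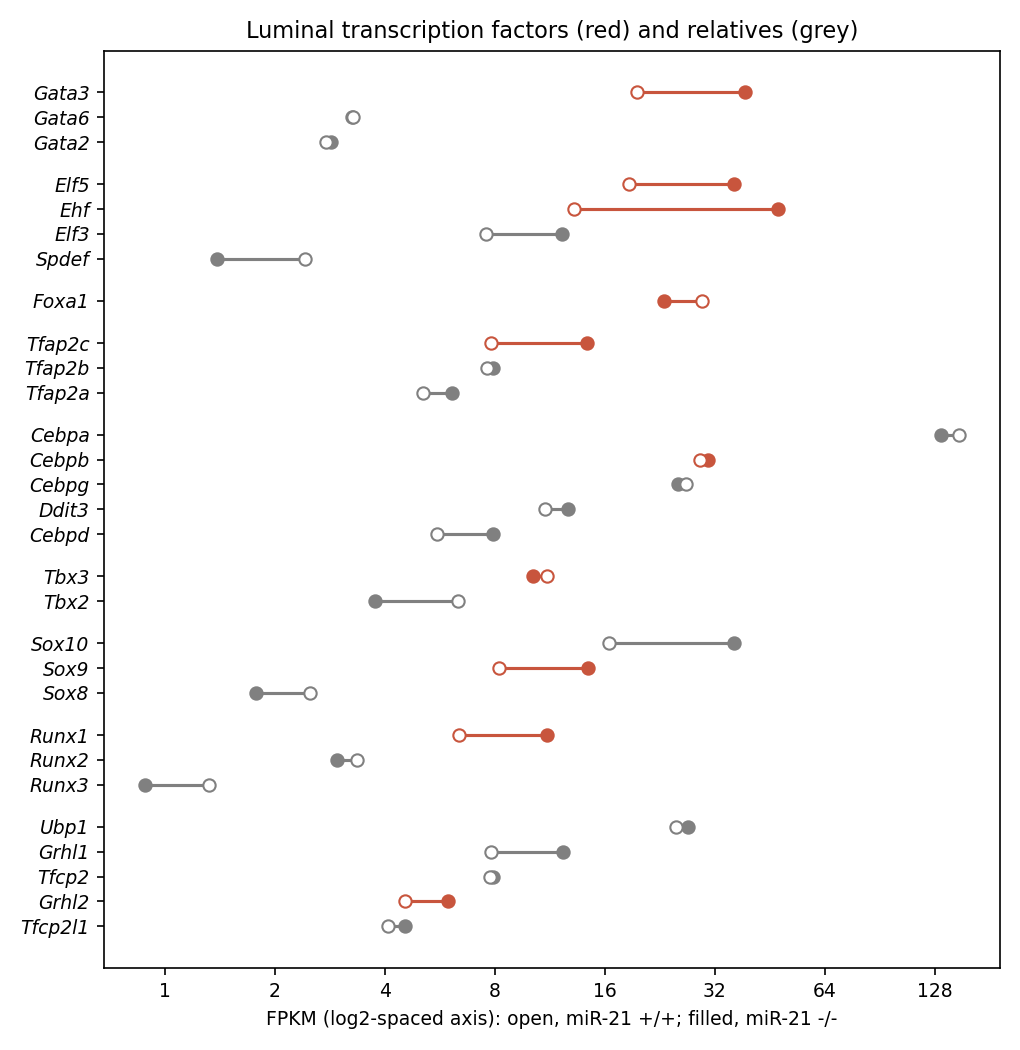
FPKM on a log2-spaced axis of the luminal transcription factors (red) and their relatives above 1 FPKM in at least 1 genotype (grey), grouped by family; open circles are miR-21+/+ and filled circles miR-21-/- glands. *Ehf*, *Elf5* and *Elf3* shift to the right together, as do *Sox9* and *Sox10*, while *Runx1* and *Gata3* move apart from their relatives.

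Of 26 partners and other regulators of luminal cells, 18 exceeded 5 FPKM, and 3 of them were 1.5-fold or more higher and 1 lower. *Pgr*, which passed 5 FPKM in miR-21-/- glands alone, *Stat5a* and *Elf3* were the higher ones and *Cited1* the lower one. *Stat5a*, the prolactin-activated factor, had 22.8 and 39.0 FPKM (log2 0.78, with a failed comparison in the status column), and *Stat5b*, its close relative, had 20.5 and 26.0 FPKM. *Prlr*, the prolactin receptor, had 31.5 and 43.2 FPKM (log2 0.46) and *Xbp1*, a factor of secretory cells, 84.0 and 117 FPKM (log2 0.47). The median log2 ratio of the list was 0.06. The lists overlap, since *Pgr*, *Prom1*, *Esr1*, *Prlr*, *Cited1*, *Elf3*, *Spdef* and *Sox10* each stand in more than 1 of them. Each luminal factor also stands in the list of its own family, so family counts and sums include it.

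The 3' UTRs of the 10 genes were searched for matches to the seed of miR-21, bases 2 to 8 of the mature microRNA, because a gene with a match could be a direct target. The mature sequence from RefSeq, with the seed in capitals, is shown with the single match that was found.
miR-21: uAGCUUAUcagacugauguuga
*Runx1*: cagggcagcccTAAGCTActgatgttttc
None of the 10 genes had an 8mer or 7mer-m8 match (ATAAGCT), which 6.83% of the 9738 genes searched in the same way held. The match in *Runx1*, in capitals, is the weaker 7mer-A1 type, TAAGCTA, at chr16:92601804-92601810 on the minus strand of mm9, in the 3' UTR of 4188 nt, at base 4090. With this type counted, 1073 of the 9738 genes had a match. The 3' UTR of *Ehf*, the gene with the highest ratio, has 3339 nt and held none, and that of *Elf5*, with 1329 nt, held none either. A match is a description of the sequence and does not show that miR-21 acts on the transcript.

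Promoters of 5 of the 10 genes are in the RefSeq promoter table (GRCm38.p6), 7 starts in all, with 250 bases before and 50 after each start. Those of *Ehf*, *Tfap2c*, *Tbx3*, *Sox9* and *Grhl2* were not analysed here. They were searched on both strands for short motifs of the families of the 10 factors and for the STAT motif GAS, since *Elf5*, *Gata3* and *Runx1* were higher together. The 250 bases before a start of each of these 3 genes are shown, with every match in capitals.
*Elf5*, chr2:103411848-103412097, plus strand: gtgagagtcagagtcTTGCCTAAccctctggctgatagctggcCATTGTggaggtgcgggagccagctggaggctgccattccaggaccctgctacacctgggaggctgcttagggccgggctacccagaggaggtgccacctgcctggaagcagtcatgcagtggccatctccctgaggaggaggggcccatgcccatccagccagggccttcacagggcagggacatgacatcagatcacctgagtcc
*Gata3*, chr2:9878601-9878850, minus strand: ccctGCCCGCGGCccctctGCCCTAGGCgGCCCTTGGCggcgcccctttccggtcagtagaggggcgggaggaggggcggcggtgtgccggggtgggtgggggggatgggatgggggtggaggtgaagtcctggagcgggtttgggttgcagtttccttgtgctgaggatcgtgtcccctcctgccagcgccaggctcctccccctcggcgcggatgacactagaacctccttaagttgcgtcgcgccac
*Runx1*, chr16:92826075-92826324, minus strand: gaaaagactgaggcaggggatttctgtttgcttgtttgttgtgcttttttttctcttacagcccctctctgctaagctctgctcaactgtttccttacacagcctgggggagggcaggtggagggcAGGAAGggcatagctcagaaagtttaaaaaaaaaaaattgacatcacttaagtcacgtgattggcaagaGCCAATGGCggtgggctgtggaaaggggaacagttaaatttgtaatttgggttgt
In *Elf5* the capitals mark the C/EBP motif TTGCNNAA and the SOX motif ACAATG on the opposite strand. The second *Elf5* start held TTGCNNAA as well, and 10.8% of the 32851 promoters in the table held it. In *Gata3* they mark 3 matches of the AP-2 motif GCCNNNGGC, which 16.6% of the promoters held. In *Runx1* they mark the ETS motif AGGAAG (35.4%) and an AP-2 match. Further on, 2 matches of the RUNX motif TGTGGT (16.8%) began at bases 29 and 37 after this start. The other *Runx1* start and the *Cebpb* start held no match of any of the motifs. The GATA motif AGATAA, the Grainyhead motif AACCNGTT and GAS (TTCNNNGAA) were in none of the 7, against 11.2%, 2.09% and 8.30% of the promoters. The forkhead motif TGTTTAC was in the promoter of *Foxa1* (3.65% of the promoters), and the T-box motif GGTGTGA in the second *Elf5* promoter (3.98%). The SOX motif was in 12.6% of the promoters. These motifs are short, and a match does not show that a factor binds there.

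By position, 5 of the 10 genes, *Gata3*, *Elf5*, *Ehf*, *Tfap2c* and *Cebpb*, lie on chromosome 2, and 4 of these were 1.5-fold or more higher. Over the whole chromosome 40 of 777 named loci above 5 FPKM were (5.15%), and the median log2 ratio was -0.02. Within 500 kb of the 10 genes there were 48 other named loci above 1 FPKM, of which 5 were 1.5-fold or more higher and 5 lower, with a median log2 ratio of -0.01. Of all 13565 named loci above 1 FPKM, 5.53% were 1.5-fold or more higher and 6.37% lower. *BC006965*, 70.6 kb from *Sox9*, had 8.54 and 18.5 FPKM (log2 1.12), and *Ncald*, 2.61 kb from *Grhl2*, had 1.94 and 3.99 FPKM (log2 1.04). *Itih2*, a hyaluronan-binding serum protein 204 kb from *Gata3*, had 17.5 and 2.61 FPKM (log2 -2.74). These 3 loci were chosen after their values were seen.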

How the data were processed

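RNA-Seq data of 4 mammary glands, 2 per genotype, were used. The authors aligned single-end reads to mm9 with TopHat, estimated abundances with Cufflinks and deposited a Cuffdiff table of FPKM values, 1 per locus and genotype. The submitters' notes also name CASAVA. Versions and annotation are not given in the sources used here. Depth per sample is not part of the table. The authors' own fold changes, test statistics, p-values, q-values and calls were not used.

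Genes were matched by name or by the synonyms of the RefSeq gene table, and the locus with the highest mean FPKM was kept. Plain log2 ratios of FPKM were computed. Loci above 5 FPKM in at least 1 genotype were counted at 1.5-fold and 2-fold, list medians used genes above 1 FPKM, and locus starts were shifted to count from 1. No test across mice was possible. The genes and all lists were chosen with earlier results of these data known. The text could name the 10 factors, list genes past 1.5-fold, the most abundant gene of a list and nearest relatives. It names some of these, and other genes chosen after their values were seen. Some list genes are not reported here. Seed matches were counted in the longest GENCODE vM1 3' UTR of each gene. Counting and motif search were tested on simulated data. Alternatives covered pseudocounts, scaling, centring, FPKM minimums and the choice of loci. Calculations used Python 3.11.15, numpy 2.4.6, pandas 2.3.3 and matplotlib 3.10.9.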

Additional observations from a re-analysis of the deposited data

Results flagged for a closer look

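Loci without a gene name lie outside the comparison of named genes. Of the 3 such loci above 5 FPKM within 500 kb of the 10 factors, 2 were 2-fold or more higher in miR-21-/- glands. A locus of 59800 bp, 477 kb from *Gata3* at chr2:9242144-9301943, had 0.277 FPKM in miR-21+/+ and 8.18 FPKM in miR-21-/- glands (log2 4.89), so it passed the 5 FPKM limit through miR-21-/- alone and had to differ. A locus of 216 bp, 60.8 kb from *Grhl2*, had 9.09 and 19.6 FPKM (log2 1.11). Among all 628 unnamed loci above 5 FPKM, 100 (15.9%) were 2-fold or more higher and 92 were lower. Neither difference has a replicate check.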

How the results depend on the processing

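No paired analysis was possible because each genotype has a single pooled value, and for the same reason no mouse could be left out in turn. Without read counts the depth limits no value in a known way. For a single gene a shift under 0.1 on the log2 scale counted as no change.
Scaled to equal sums over all loci, which lowers every log2 ratio by 0.63, the median of the 10 genes was 0.18 and 3 passed 1.5-fold. That shift comes from loci without a gene name, since the sum over named loci was lower in miR-21-/- glands. Centred on the luminal markers the median was 0.28 and 3 passed 1.5-fold. Centred on the basal markers, an alternative chosen after seeing the data, the median was 0.11 4 genes passed 1.5-fold and 2 passed 2-fold, *Ehf* upward and *Foxa1* downward. Equal sums over named loci raised every ratio by 0.10, and 3 genes then passed 2-fold. Centring on the median of named loci let 2 pass. Each follows from a constant shift of all loci, so the shares of loci given with the first counts do not apply to these counts. Under the 3 scalings by all loci, luminal and basal markers the ratios of all 10 genes moved, and of the 6 genes past 1.5-fold *Ehf* alone stayed past it. *Grhl2* and *Cebpb* turned negative, at -0.24 and -0.56 with equal sums. With pseudocounts of 1 and 0.1, sums over loci, merged loci left out (which removes *Gata3*) and exact names only (which removes *Tfap2c*), no gene moved, and neither count changed by more than 1.5 times under those settings or under other FPKM minimums. No gene had a miR-21 8mer, and 1 had a match with 7mer-A1 sites added.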
